A study of Mus musculus with 8 samples.

Results

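Adam17 and 8 genes around it were examined in dendritic cell-restricted progenitors (CDPs) from the bone marrow of mice fed a high fat diet (HFD) or control chow (CF). The set holds Adam17, the related membrane proteases Adam10, Adam8, Adam9 and Adam15, the iRhom genes Rhbdf1 and Rhbdf2, the iRhom partner Frmd8 and the inhibitor Timp2. They were chosen by name, and 8 of the 9 were matched by Ensembl identifier among the 16119 genes of the count table. Rhbdf1 was not analysed here. The HFD mice had been given a diet with 60 kcal% fat for 16 weeks. The CF mice were controls matched for age and feeding, on 10 kcal% fat. All were C57BL/6 mice (C57BL/6J males according to the methods), labelled DIO (diet-induced obesity) or DIO-Control, and the labels name no transgene or drug in either group. The methods give the age of the purchased mice as 16 weeks, where the labels give 16 weeks as the time on the diet. CDPs were gated as Lin-, c-kit(int), Sca1(lo), CD115+ and Flt3+, and about 50000 cells went into each of 4 replicates per diet. The methods call the replicates independent without saying whether each came from 1 mouse, so the p values measure the spread between these libraries.

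ADAM proteases sit in the membrane and cut the outer part off other membrane proteins, a step called shedding. ADAM17 releases TNF and L-selectin and is also known to cut the CSF1 receptor, the CD115 of this gate. ADAM10 opens the activation of Notch receptors. ADAM17 leaves the endoplasmic reticulum only when bound to an iRhom protein, an inactive relative of the rhomboid proteases, and iRhom2 (encoded by Rhbdf2) is the form that blood cells mainly use. FRMD8 binds the iRhom tail and keeps the complex at the cell surface. In bone marrow, these proteins shape how progenitors and leukocytes keep or lose their surface receptors. The comparison of the diets addresses whether HFD alters Adam17 and the genes that govern it at the RNA level.

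All 5 ADAM genes of this set encode the motif of an active zinc site, which sets them apart from the catalytically dead members of the family. The coding stretch of that site is shown for each because it is the feature these proteases share. The sequences are from GENCODE vM21 transcripts on GRCm38, 5′ to 3′ on the coding strand, and capitals mark the codons of the zinc-binding histidines. Each stretch is 33 bases long.
Adam17: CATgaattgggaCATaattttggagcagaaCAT
Adam10: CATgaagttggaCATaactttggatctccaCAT
Adam8: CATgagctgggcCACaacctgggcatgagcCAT
Adam9: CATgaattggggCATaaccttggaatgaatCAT
Adam15: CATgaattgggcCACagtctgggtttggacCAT
The Adam17 stretch runs from base 1270 to 1302 of the longest complete coding sequence annotated for the gene (846 codons). It shared 26 of 33 bases with Adam10, 25 with Adam9, 23 with Adam15 and 19 with Adam8. The search read each coding sequence in frame for the zinc-binding motif of the metzincin proteases, and Rhbdf2, Frmd8 and Timp2 held 0 matches.

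Library totals ranged from 28203651 to 48409689 counts, and the TMM factors of edgeR, which scale libraries for depth and composition, from 0.80 to 1.18. The gate genes were measured in every library. CPM (counts relative to the scaled library total) of Flt3 averaged 251 ± 123 (SD, n = 4) in HFD and 265 ± 42.5 in CF, Csf1r (CD115) 97.4 ± 14.2 and 115 ± 14.7, and Kit 42.6 ± 8.82 and 47.9 ± 5.25. Ly6a (Sca1), which the gate takes at a low level, averaged 2.96 ± 0.33 and 2.27 ± 0.61. A library that stood apart was HFD replicate 1. The 15 neutrophil markers, all 15 of them measured, summed to 20883 CPM in it. They summed to 3644, 1305 and 979 in HFD replicates 2 to 4 and to 1993, 6692, 6223 and 6072 in CF replicates 1 to 4. The 6 granulocyte progenitor markers summed to 216 to 1189 CPM under HFD against 328 to 723 under CF, with the highest sum again in HFD replicate 1. The most abundant gene of each marker list was S100a9 (neutrophil), Mpo (granulocyte progenitor), F13a1 (monocyte), Irf8 (CDP), Ighm (B cell), Car2 (erythroid), Prss34 (mast cell and basophil) and Pecam1 (stromal and endothelial). Monocyte and macrophage markers (10 of 11 measured) summed to 207 to 756 CPM under HFD against 415 to 721 under CF. CDP markers (10 of 10) summed to 740 to 1432 CPM under HFD against 1099 to 1231 under CF, B cell markers (8 of 8) to 465 to 1298 against 318 to 553, erythroid markers (8 of 8) to 88.5 to 534 against 87.7 to 141, mast cell and basophil markers (6 of 6) to 11.3 to 72.1 against 21.5 to 52.7, and stromal and endothelial markers (7 of 10) to 60.1 to 114 against 75.9 to 92.6. HFD replicate 1 also held the highest erythroid sum (534 CPM, 88.5 to 131 in the other HFD libraries), the highest B cell sum (1298, others 465 to 656) and the lowest CDP sum (740, others 1284 to 1432). In bulk samples, more cells of a type and more RNA per cell cannot be told apart.

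None of the 8 genes differed between HFD and CF at the threshold used, an adjusted p below 0.05 in edgeR's quasi-likelihood test. Among all 15837 genes tested, 0.423% were called, all of them lower in HFD. At an unadjusted p below 0.05, the count was 0 of 8, beside 8.56% of all genes, and limma voom also called 0 of the 8. DESeq2 called 0 of the 6 for which it gave a p, and it gave none for Adam8 and Timp2, the genes with the widest range. Over all genes, limma voom called 0 higher and 70 lower in HFD, and DESeq2 called 64 higher and 503 lower. The diets overlapped in CPM for all 8 genes, where 6.16% of all genes had groups apart, 2.58% higher and 3.58% lower in HFD. A log2 fold change above 0 was found for 5 of the 8, beside 59.7% of all genes, and their median was 0.044 beside 0.055. The genes differed far more in their spread. Frmd8 and Adam17 were the steadiest, and Adam8 and Timp2 had the widest ranges.

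**Figure D1:**
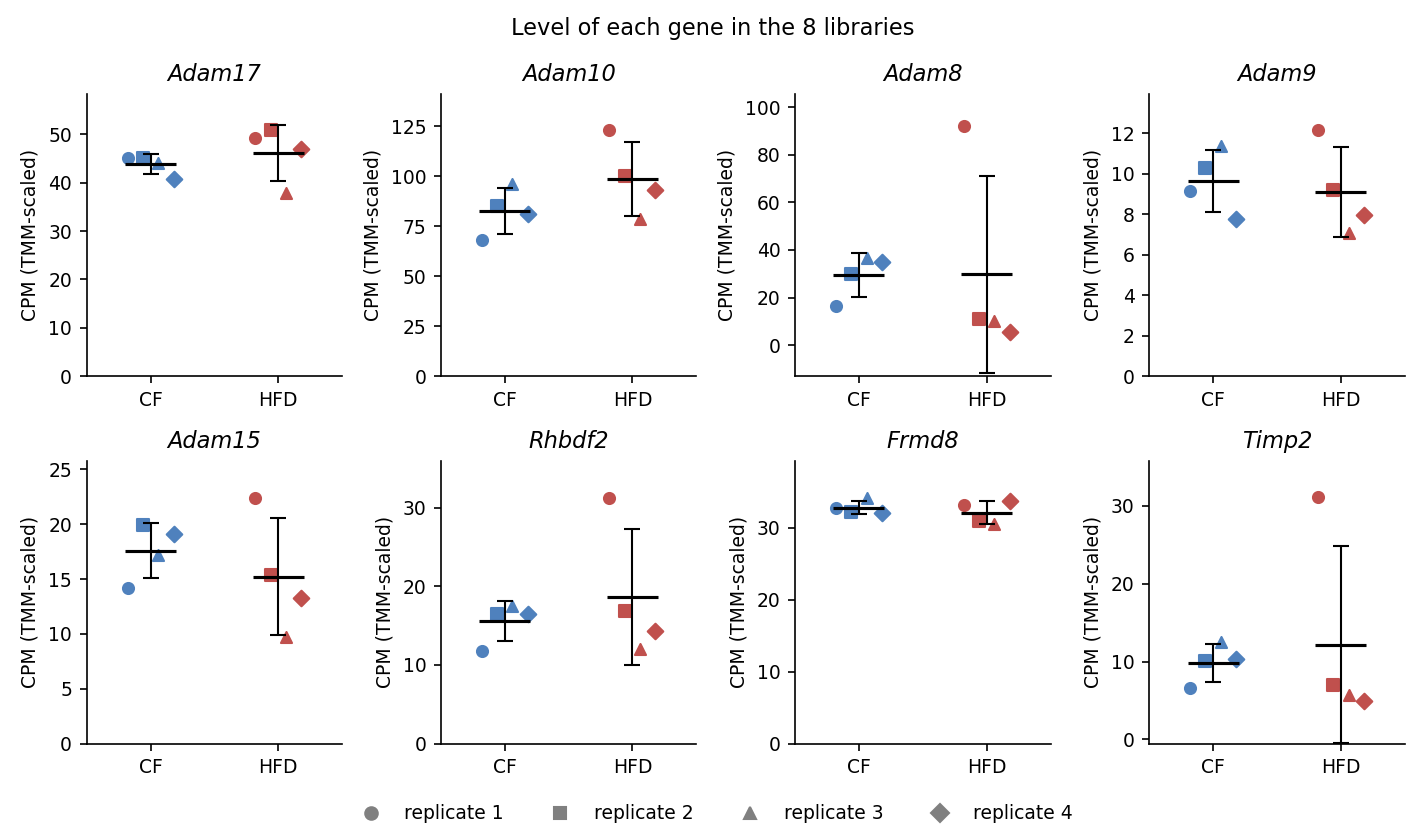
TMM-scaled CPM of each gene in the 4 CF (blue) and 4 HFD (red) libraries. Points are libraries, with the symbol giving the replicate, horizontal lines are means and bars are SD. HFD replicate 1 is the highest of all libraries for Adam10, Adam8, Adam9, Adam15, Rhbdf2 and Timp2, with 91.9 CPM for Adam8, while Frmd8 lies between 30.5 and 34.2 CPM in all 8.

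Adam17 (ENSMUSG00000052593; chromosome 12 of GRCm38, 21323509 to 21373632, minus strand), the sheddase of TNF, received 1402 to 1931 counts per library. Its level was 49.2, 50.8, 37.8 and 46.9 CPM in HFD replicates 1 to 4. In CF replicates 1 to 4 it was 45.2, 45.2, 44.1 and 40.8 CPM. HFD held both the highest and the lowest library, and the CF values lay between them. Adam17 thus differed by a log2 fold change of 0.075 between HFD and CF (SE 0.11, edgeR adjusted p = 0.93). Its 95% interval ran from -0.18 to 0.33, that is, from 0.88-fold to 1.26-fold. A rise above 1.26-fold and a fall below 0.88-fold were outside this interval. The interval holds for gene counts, not for single transcripts, under TMM scaling over all 8 libraries. With library size alone the log2 fold change was 0.28 (95% interval -0.079 to 0.63, edgeR adjusted p = 0.43), where the median of all genes was 0.25. With each library left out it ran from 0.026 to 0.16, the highest without HFD replicate 3 (95% interval -0.060 to 0.38). The SD of log2 CPM was 0.19 in HFD and 0.070 in CF, where counting error alone gives 0.036. Its exons share 311 bases with Iah1 on the opposite strand, which had 3.99 ± 0.60 CPM in HFD (mean ± SD, n = 4) and 3.23 ± 0.84 in CF. Whether the counting used strand is not given in the sources used here.

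Adam10 (ENSMUSG00000054693; chromosome 9, 70678997 to 70780229, plus strand), the protease that starts Notch activation, was the most abundant of the 8. It had 123, 99.9, 78.7 and 93.0 CPM in HFD replicates 1 to 4. In CF it had 68.1, 85.2, 96.3 and 81.4 CPM. The upper HFD values lay above all CF values, and the lower ones fell inside the CF range. For Adam10 the log2 fold change came to 0.25 (SE 0.16, 95% interval -0.11 to 0.61, edgeR adjusted p = 0.78). With the mean log2 CPM of the neutrophil markers as a covariate it was 0.33 (edgeR adjusted p = 0.16, unadjusted p = 0.012). Without HFD replicate 1 it was 0.13, and without that library and with the covariate 0.41 (edgeR adjusted p = 0.49, unadjusted p = 0.043). At an edgeR unadjusted p below 0.05, the covariate fit held 2 of the 8 (Adam10 and Rhbdf2), beside 2225 of all 15837 genes. The covariate fit without HFD replicate 1 held 2 of the 8 (Adam10 and Adam8), beside 1521 of all 15863 genes.

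Rhbdf2 (ENSMUSG00000020806; chromosome 11, 116598165 to 116627019, minus strand) encodes iRhom2, the carrier of ADAM17. Its level was 31.2, 16.9, 12.02 and 14.3 CPM in HFD replicates 1 to 4 and 11.8, 16.5, 17.4 and 16.5 CPM in CF replicates 1 to 4. HFD replicate 1 was above all other libraries, and the other HFD replicates overlapped CF. HFD against CF gave 0.26 for Rhbdf2 (log2 fold change, SE 0.29, 95% interval -0.41 to 0.92, edgeR adjusted p = 0.90). It was -0.11 without HFD replicate 1 (edgeR adjusted p = 0.80) and 0.36 with the neutrophil covariate (edgeR adjusted p = 0.14, unadjusted p = 0.010). With the covariate and without HFD replicate 1 it was 0.30 (edgeR adjusted p = 0.78), so the sign without that library depended on the covariate.

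Frmd8 (ENSMUSG00000024816; chromosome 19, 5849702 to 5875274, minus strand), which stabilises the complex of iRhom and ADAM17, was the steadiest of the set. It had 33.1, 31.0, 30.5 and 33.8 CPM in HFD and 32.7, 32.3, 34.2 and 32.1 CPM in CF. The highest library was only 1.12 times the lowest. The SD of log2 CPM was 0.071 in HFD and 0.041 in CF, where counting error alone gives 0.043. The difference between the diets was -0.032 (log2 fold change, SE 0.084, 95% interval -0.22 to 0.16, edgeR adjusted p = 0.97), and it was 0.16 when libraries were scaled by size alone. That scaling moved the median of all genes from 0.055 to 0.25, so Frmd8 lay below the median in either case. Its exons share 388 bases with the opposite-strand transcript Frmd8os, which was not analysed here.

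Adam8 (ENSMUSG00000025473; chromosome 7, 139978932 to 139992562, minus strand), a sheddase of leukocytes, had the widest range of the set. It had 91.9, 11.1, 10.1 and 5.75 CPM in HFD replicates 1 to 4. In CF it had 16.4, 29.8, 36.5 and 35.1 CPM. HFD replicate 1 was above every CF library, and HFD replicates 2 to 4 were below every CF library. Over all 8 libraries the log2 fold change was 0.012 (SE 0.82, 95% interval -1.87 to 1.89, edgeR adjusted p = 1.0), since the means of 29.7 ± 41.5 (SD, n = 4) and 29.4 ± 9.17 CPM were alike. The direction of this small value turned with the scaling, to -0.0044 with RLE size factors. Over the same libraries it was -0.90 with limma voom, -0.78 with the linear model and -1.08 with the replicate block, and none of these was called.

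Without HFD replicate 1, Adam8 fell in HFD by 1.71 on the log2 scale (SE 0.32, 95% interval -2.45 to -0.97), and passed the threshold (edgeR adjusted p = 0.0496). At an unadjusted p below 0.05 there were then 3 of the 8 (Adam8, Timp2 and Adam15), beside 14.6% of all genes. Adam8 was the 1 gene of the 8 to pass after adjustment, where 1.26% of all genes did in either direction and 1.05% of all genes were called lower in HFD. It was also the 1 gene of the 8 whose groups were then apart, where 13% of all genes were apart in either direction and 6.64% of all genes were apart and lower in HFD. Both the call and this separation came from leaving out the library with the outlying Adam8 value, so they add no independent support. The neutrophil markers moved with Adam8 in most libraries. Their sums were 979 to 3644 CPM in HFD replicates 2 to 4 and 1993 to 6692 CPM in CF. These sums overlapped between the diets, where Adam8 did not. HFD replicate 2 had a higher sum than CF replicate 1 (3644 against 1993 CPM) but less Adam8 (11.1 against 16.4 CPM). With the neutrophil score as a covariate the log2 fold change of Adam8 was -0.30 over all libraries (edgeR adjusted p = 0.55). It was -0.82 with the covariate and without HFD replicate 1 (edgeR adjusted p = 0.29, unadjusted p = 0.016), a setting chosen after the data were seen. Exons of Adam8 share 46 bases with the antisense transcript Gm16201, which had 0.62 ± 0.51 CPM in HFD and 0.56 ± 0.49 in CF (SD, n = 4).

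Timp2 (ENSMUSG00000017466; chromosome 11, 118301069 to 118355740, minus strand), a secreted inhibitor of metalloproteinases, showed the same order of libraries as the neutrophil markers at both ends. It had 31.1, 6.92, 5.69 and 4.90 CPM in HFD replicates 1 to 4 and 6.56, 10.1, 12.5 and 10.3 CPM in CF replicates 1 to 4. HFD replicate 1 was the highest library by far, and HFD replicate 4 was the lowest. HFD against CF gave 0.30 for Timp2 (log2 fold change, SE 0.59, 95% interval -1.05 to 1.65, edgeR adjusted p = 0.95). Without HFD replicate 1 it was -0.75 (SE 0.23, edgeR adjusted p = 0.16, unadjusted p = 0.0095), with the neutrophil covariate over all libraries 0.25 (edgeR adjusted p = 0.54), and with the covariate and without that library -0.14 (edgeR adjusted p = 0.97). Timp2 was also below 0 with limma voom (-0.16), the linear model (-0.084) and the replicate block (-0.21), so its sign was not settled.

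**Figure D2:**
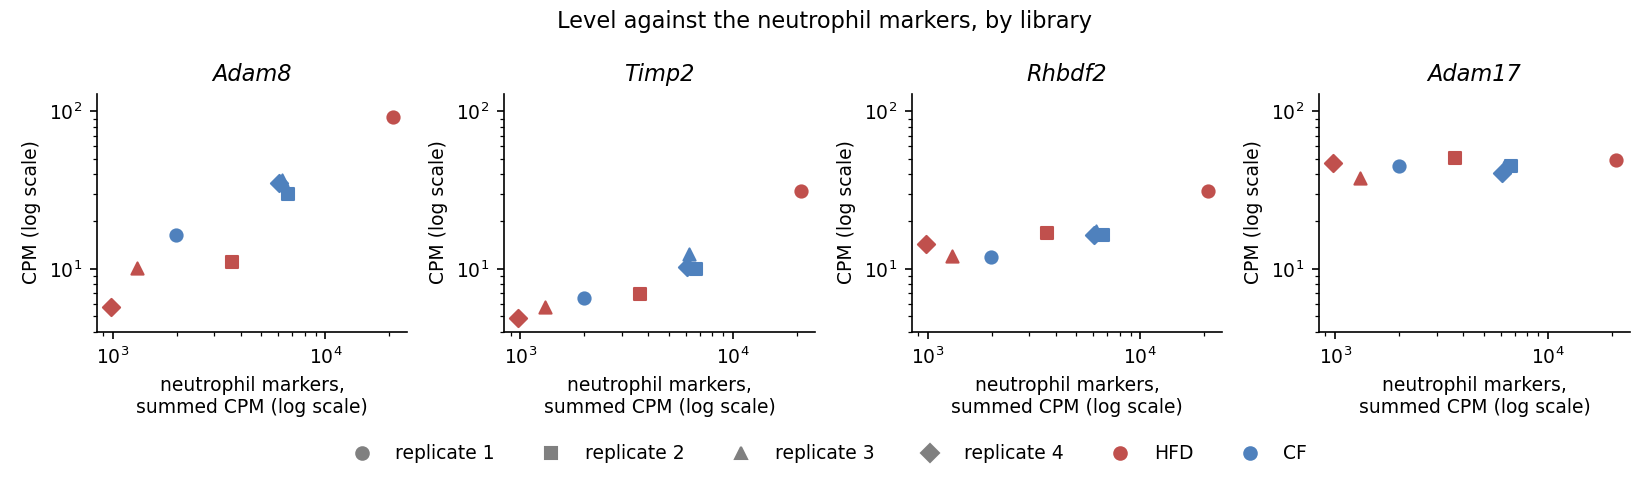
CPM of Adam8, Timp2, Rhbdf2 and Adam17 (vertical, log scale) against the summed CPM of 15 neutrophil markers (horizontal, log scale) in each library, with HFD in red, CF in blue and the symbol giving the replicate. Adam8 runs from 5.75 CPM where the markers sum to 979 CPM to 91.9 CPM where they sum to 20883, and Adam17 stays between 37.8 and 50.8 CPM over the same span.

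Adam15 (ENSMUSG00000028041; chromosome 3, 89338542 to 89349996, minus strand) and Adam9 (ENSMUSG00000031555; chromosome 8, 24949611 to 25016927, minus strand) are widely expressed ADAM proteases. Adam15 had 22.4, 15.4, 9.73 and 13.3 CPM in HFD and 14.2, 19.9, 17.2 and 19.1 CPM in CF. HFD held the highest library and the lowest. Adam15 differed by -0.21 between the diets (log2 fold change, SE 0.24, 95% interval -0.76 to 0.33, edgeR adjusted p = 0.90), and this value moved to -0.46 without HFD replicate 1 (edgeR adjusted p = 0.29, unadjusted p = 0.034). It was -0.048 without HFD replicate 3, -0.12 with the neutrophil covariate and -0.098 with the covariate and without HFD replicate 1. Its exons share 1263 bases with the antisense gene 4731419I09Rik, which had 2.16 ± 0.61 CPM in HFD and 3.00 ± 0.46 in CF (SD, n = 4), and how reads were divided between this pair is not known. Adam9 had 12.1, 9.19, 7.08 and 7.94 CPM in HFD and 9.15, 10.3, 11.3 and 7.75 CPM in CF, and these ranges overlapped over most of their length. Adam9 differed by -0.084 (log2 fold change, SE 0.20, 95% interval -0.53 to 0.36, edgeR adjusted p = 0.96), and it was 0.12 when libraries were scaled by size alone, below the median of all genes under that scaling as under TMM.

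**Figure D3:**
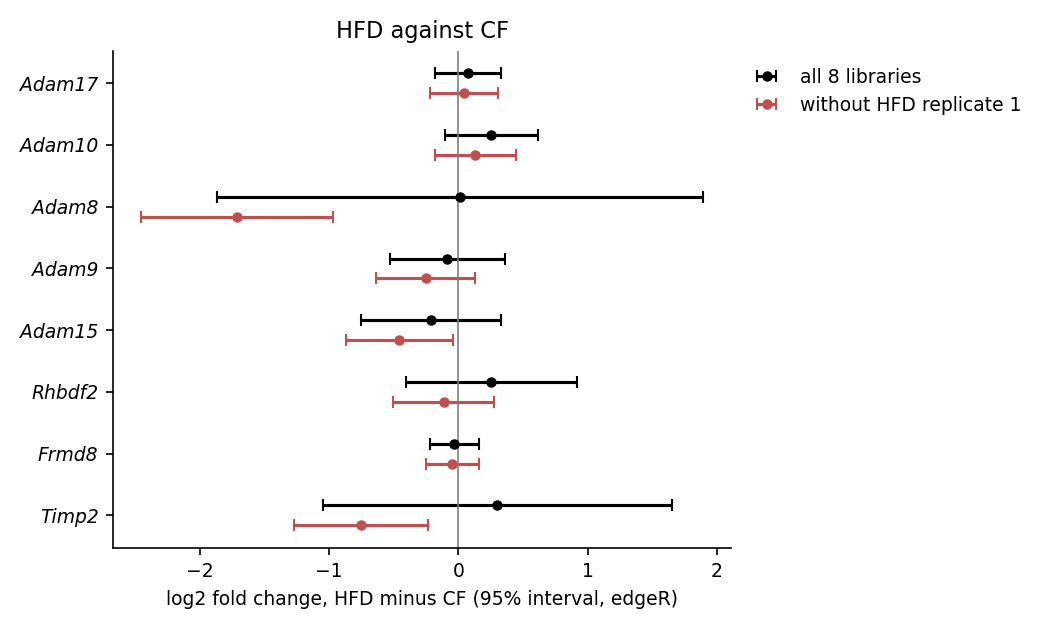
Log2 fold change of HFD against CF from edgeR (points) with 95% intervals (bars), over all 8 libraries (black) and without HFD replicate 1 (red). All 8 black intervals include 0, and leaving out HFD replicate 1 moves Adam8 from 0.012 to -1.71 and Timp2 from 0.30 to -0.75 but Adam17 only from 0.075 to 0.044.

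Levels were compared between genes per length, as CPM per kb of exons averaged over the 8 libraries. Adam10 stood first with 18.5 ± 3.38 (SD, n = 8) and exceeded the gene next in order in 8 of 8 libraries, with ranges apart. Frmd8 (6.39 ± 0.25), Adam8 (6.38 ± 6.01) and Adam17 (6.29 ± 0.59) followed and could not be ordered, since Adam8 was above Adam17 in 4 of 8 libraries and Frmd8 was above Adam8 in 4 of 8. Adam17 was above Rhbdf2 (3.23 ± 1.16) in 8 of 8 libraries, although their ranges over all libraries overlapped. Rhbdf2 exceeded Timp2 in 7 of 8. Timp2 (2.82 ± 2.19) and Adam15 (2.67 ± 0.66) overlapped, with Timp2 the higher in 2 of 8 libraries. Adam9 had the lowest mean, 2.27 ± 0.43, and lay below Adam15 in 7 of 8, with overlapping ranges. Adam9 and Timp2 could not be ordered. Timp2 was the lower in HFD replicates 2 to 4 and CF replicate 1 and the higher in the other libraries, with 7.98 in HFD replicate 1. The length used matters most for Adam17, whose 10 annotated transcripts give 7.154 kb of exons in union. Per kb of its longest transcript it had 10.1 CPM and stood second to Adam10, with 19.7.

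**Figure D4:**
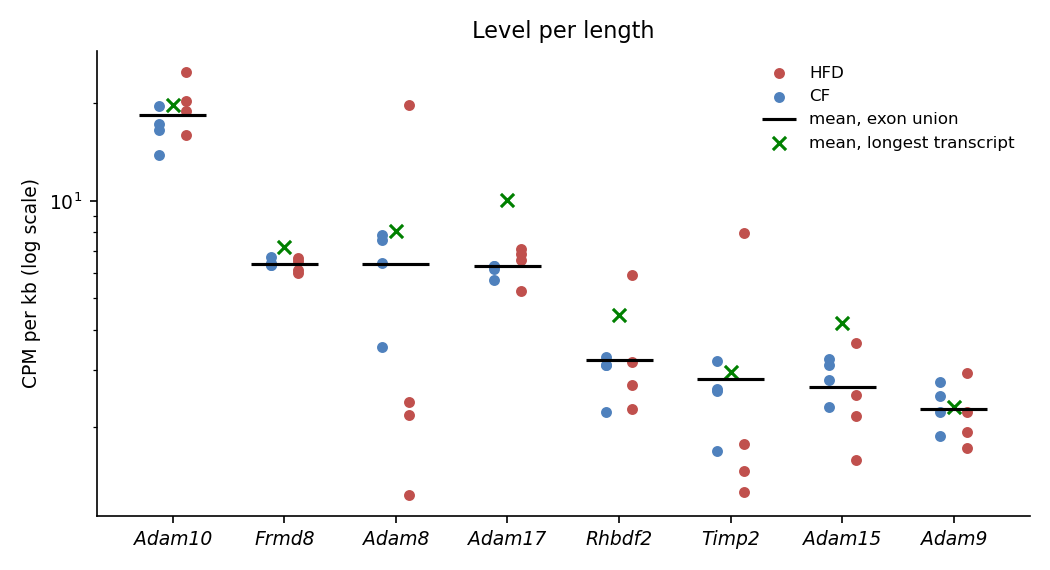
CPM per kb (log scale) of the 8 genes, ordered by their mean. Points are libraries (HFD red, CF blue), black lines are means per kb of all exons, and green crosses are means per kb of the longest transcript. Adam10 is highest under either length, and Adam17 rises from 6.29 to 10.1 when the longest transcript is used.

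Summed per kb over the 5 ADAM genes of the set, Adam17 made up 18.3% ± 4.41 (SD, n = 4) in HFD and 18.02% ± 2.99 in CF. Adam10 took 55.7% ± 8.62 in HFD and 48.8% ± 1.04 in CF. In HFD its share ran from 42.9% to 61.4%, and in CF from 47.6% to 50.0%, so the diets overlapped. The overlap came from HFD replicate 1, where Adam8 took 33.99%, and Adam10 took 58.8% to 61.4% in the other HFD libraries. A share rises where another falls, and Adam8 took 4.03% to 8.15% in those libraries. In CPM, Adam10 overlapped between the diets also without HFD replicate 1 (log2 fold change 0.13, edgeR adjusted p = 0.70). Adam8 took from 4.03% to 33.99% in HFD and from 12.5% to 21.7% in CF.

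Ratios of counts within a library do not depend on how libraries are scaled, and each of the other 7 genes was set against Adam17 in this way. Adam10 exceeded Adam17 by 1.09 ± 0.16 on the log2 scale in HFD and 0.91 ± 0.23 in CF (SD, n = 4; exact two-sided permutation test, p = 0.34). Adam15 lay below Adam17 by a log2 ratio of -1.66 ± 0.36 in HFD and -1.33 ± 0.25 in CF, which had the lowest p of the 7 (exact permutation test, p = 0.17, adjusted p = 0.48). For Adam8 the ratio was -1.56 ± 1.71 in HFD and -0.64 ± 0.58 in CF (exact permutation test, p = 0.31). For Rhbdf2 it was -1.40 ± 0.50 and -1.51 ± 0.29 (exact permutation test, p = 0.80), and for Frmd8 -0.52 ± 0.17 and -0.42 ± 0.070 (exact permutation test, p = 0.34). None of the 7 ratios differed between the diets beyond the spread of the replicates, and the adjusted p ranged from 0.48 to 0.83. With 4 libraries against 4 the smallest p that this test allows is 0.029, which adjusts to 0.20 for a single ratio. Even 4 of the 7 reaching it together would adjust to 0.05, which is not below the threshold. The design could therefore hardly have called a ratio. With each library left out in turn, the difference in log2 ratio between the diets turned from 0.10 to -0.14 for Rhbdf2 (without HFD replicate 1, and to -0.038 without CF replicate 1) and from -0.19 to 0.10 for Timp2 (without HFD replicate 4). It ran from -1.74 to -0.43 for Adam8, from 0.074 to 0.25 for Adam10, from -0.51 to -0.23 for Adam15, from -0.28 to -0.087 for Adam9 and from -0.17 to -0.034 for Frmd8.

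The library pattern of Adam17 was most like that of Smc2, Plcb3 and Mknk1 among 6659 protein-coding genes with at least 10 CPM on average. Smc2 encodes a condensin subunit, Plcb3 a phospholipase C and Mknk1 a kinase of the initiation factor eIF4E. Over the 8 libraries, which share depth and composition effects, Pearson's r of log2 CPM was 0.96 for Smc2, 0.92 for Plcb3 and 0.92 for Mknk1, with Spearman's rho of 0.93, 0.95 and 0.81. They were picked as the highest of many, so no test is given. Smc2 ran from 108 CPM in HFD replicate 3, which was also the lowest library for Adam17, to 137 CPM in HFD replicate 2, the highest for Adam17.

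The other genes of the pathway were taken from 8 lists of 77 genes, of which 61 were tested and 0 called by edgeR, beside 0.423% of all genes. At an unadjusted p below 0.05 there were 7 of 61, beside 8.56% of all genes. The signs below stand beside 59.7% of all genes with a log2 fold change above 0 and an overall median of 0.055. Among 18 partners of ADAM17 in folding, trafficking and phosphorylation, 16 had a log2 fold change above 0, with a median of 0.093. The most abundant was Ywhaz, a 14-3-3 protein, with 259 ± 20.1 CPM in HFD (mean ± SD, n = 4) and 253 ± 28.4 in CF. The lowest p of that list belonged to Prkca, the protein kinase C alpha that acts upstream of shedding. Prkca had 15.1, 17.6, 21.0 and 19.2 CPM in HFD replicates 1 to 4 and 11.6, 9.26, 14.9 and 11.1 CPM in CF. Every HFD library exceeded every CF library, as in 2.58% of all genes, and it was the 1 gene of the 61 with groups apart. Prkca differed by 0.64 (log2 fold change, SE 0.17, edgeR adjusted p = 0.17), so it was not called.

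Of the proteins that ADAM proteases shed, 19 of 24 were tested and 8 had a log2 fold change above 0, with a median of -0.078. Notch2, a substrate of ADAM10, was the most abundant, with 249 ± 39.4 CPM in HFD and 279 ± 23.7 in CF (SD, n = 4; log2 fold change -0.16, edgeR adjusted p = 0.84). Lag3, a receptor of activated lymphocytes and of plasmacytoid DCs that both ADAM10 and ADAM17 shed, had the lowest p. It had 1.96, 4.34, 3.75 and 4.83 CPM in HFD and 1.37, 2.10, 1.86 and 2.34 CPM in CF. The HFD libraries other than replicate 1 were above all of CF. Lag3 differed by 0.96 (log2 fold change, SE 0.30, edgeR adjusted p = 0.30).

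Of the 7 gamma-secretase subunits, which cut the stub left by shedding, 7 were tested and 6 had a log2 fold change above 0, with a median of 0.074. Aph1c had the lowest p (log2 fold change -0.26, edgeR adjusted p = 0.89). Of the tetraspanins that guide ADAM10, 4 of 6 were tested, led by Tspan14 with 42.9 ± 3.91 and 43.7 ± 4.80 CPM, and the lowest p was that of Tspan17 (log2 fold change -0.67, edgeR adjusted p = 0.90). Of the proprotein convertases, which remove the ADAM prodomain, Furin had 37.1 ± 12.2 CPM in HFD and 37.1 ± 6.59 in CF, and Pcsk7 15.3 ± 4.38 and 15.1 ± 0.78. These 3 groups had 0 genes at an unadjusted p below 0.05 in edgeR.

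Among other inhibitors, Timp3, the main physiological inhibitor of ADAM17, ran from 0.27 to 13.2 CPM under HFD against 1.27 to 1.54 under CF (log2 fold change 1.55, SE 0.96, edgeR adjusted p = 0.78). Reck had 3.65 ± 2.65 CPM in HFD and 3.01 ± 0.44 in CF (SD, n = 4). Of the other ADAM genes, 4 of 8 were tested. Adam19 was the most abundant of them, with 30.1 ± 15.5 CPM in HFD and 29.1 ± 3.38 in CF. Adam23, a member that lacks protease activity, had 0.69 ± 0.47 and 1.92 ± 1.11 CPM (log2 fold change -1.46, edgeR adjusted p = 0.56). Of the matrix metalloproteinases, 5 of 6 were tested. Mmp9, which is also on the neutrophil list, ran from 32.96 to 532 CPM under HFD against 63.5 to 207 under CF, and Mmp14, the partner of TIMP2 in activating MMP2, had 1.54 ± 1.20 and 0.64 ± 0.29 CPM (log2 fold change 1.26, edgeR adjusted p = 0.73).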

How the data were processed

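RNA of flow-sorted CDPs was amplified with the NuGEN Ovation Solo RNA-Seq kit, which depletes rRNA, and sequenced as paired reads. According to the methods, the authors aligned reads with HISAT2, kept uniquely mapped pairs and counted them with StringTie on GENCODE annotation. The submitters' processing notes name GRCm38, FastQC and cutadapt without versions. The deposited table holds raw counts per gene. It lists no gene at 0 in every library, and a filter is not given in the sources used here. Each column was assigned by the S number that its header shares with a sample title, since the rest of the headers differs from the titles. Genes were named from GENCODE vM21 (GRCm38), and 16067 of 16119 were matched. The annotation of the authors is not given by release.

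The test was that of edgeR 4.0.16 under R 4.3.3 (filterByExpr, TMM, robust quasi-likelihood fit, diet as the only term), which left 15837 genes, and Benjamini-Hochberg adjustment covered them all. The authors tested genes and transcripts with Ballgown and had estimated FPKM as well as raw counts. Their FPKM were not used here. They also measured Adam17 by qRT-PCR in sorted CDPs. The fits here are of gene counts, so a change in a single transcript was not tested. Standard errors were taken as the log2 fold change over the root of F. Log2 CPM used a prior count of 2. The alternatives were RLE factors, library size alone, protein-coding genes alone, DESeq2 1.42.0, limma voom (3.58.1), gene-wise linear models (pseudocount 1 on CPM), omission of the filter, a minimum of 1 CPM in 4 libraries, a block for the replicate number, a neutrophil covariate and each library left out in turn. The tests were tried on simulated data. The genes named are the 8 members, each pathway list's most abundant gene and that with its lowest p, each marker list's most abundant gene, and the 3 genes most like Adam17. The gate genes and the genes that share exon bases with a member on the opposite strand are named too. The most abundant gene of 1 pathway list is not reported here. The members and lists were chosen with earlier results of these data known. The lists were written from general knowledge, and the ratio of Rhbdf2 to Rhbdf1 could not be computed. The sequences of the zinc sites were read from GENCODE transcripts. Plots used matplotlib 3.10.9 in Python 3.11.15.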

Additional observations from a re-analysis of the deposited data

Results flagged for a closer look

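In 30 groups of 4 libraries (each gene's CPM and each log2 ratio to Adam17, by diet), 4 held a library far from the other 3, where chance gives about 1 in 20. Adam8 in HFD replicate 1 had 91.9 CPM against 5.75 to 11.1 in the other HFD libraries. Timp2 in HFD replicate 1 had 31.1 CPM against 4.90 to 6.92. The log2 ratio of Rhbdf2 to Adam17 was -0.65 in HFD replicate 1 against -1.71 to -1.59. Rhbdf2 in CF replicate 1 had 11.8 CPM against 16.5 to 17.4 in the other CF libraries. HFD replicate 1 had the highest sum of neutrophil markers of the 8 libraries, and CF replicate 1 the lowest of its diet. The part of these markers in the Rhbdf2 and Timp2 values was not tested beyond the covariate fits given above.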

How the results depend on the processing

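Over 19 alternatives, Adam8 was called in 1, without HFD replicate 1 (edgeR), and 0 genes in the other 18, of which DESeq2 gave a p for 6 of the 8 (not for Adam8 and Timp2). Adam17 stayed above 0 in all 19, from 0.026 to 0.28, with adjusted p of 0.43 to 1.0 by the tool of each. These alternatives share libraries, so their agreement in sign is not independent. The median of all genes was also above 0 in each, from 0.018 to 0.25. Adam17 lay below that median without HFD replicate 2 (0.026 beside 0.066) and without CF replicate 4 (0.042 beside 0.060), and above it in the others. The value of Adam8 turned negative with RLE factors (-0.0044), protein-coding genes alone (-0.040), DESeq2 (-0.0029), limma voom (-0.90), the linear model (-0.78), the replicate block (-1.08), the neutrophil covariate (-0.30), the covariate without HFD replicate 1 (-0.82), and without CF replicate 1 (-0.19), and ran from -1.71 to 0.31 with each library left out. Timp2 turned negative with limma voom (-0.16), the linear model (-0.084), the replicate block (-0.21) and the covariate without HFD replicate 1 (-0.14), and ran from -0.75 to 0.54 with each library left out. With library size alone, Adam9 was 0.12, Frmd8 0.16, Adam10 0.43, Rhbdf2 0.41, Timp2 0.43, Adam8 0.11 and Adam15 -0.047. The median of all genes was 0.25 under that scaling. With each library left out, Adam9 ran from -0.25 to 0.018 (0.018 without HFD replicate 3, 0.0042 without CF replicate 3) and Rhbdf2 from -0.11 to 0.42. Adam15 ran from -0.46 to -0.048 and Frmd8 from -0.097 (without HFD replicate 4) to -0.0081 (without HFD replicate 3), and Rhbdf2 was 0.30 with the covariate and without HFD replicate 1. The causes were not tested. Genes called higher, 0 in the fit reported, were 10 with library size alone, 64 with DESeq2, 104 with the neutrophil covariate, 16 with it and without HFD replicate 1, and 0 to 34 with each library left out. Genes called lower, 67, were 0 with protein-coding genes alone, with the linear model and with the replicate block, 503 with DESeq2, 559 and 360 with the covariate over all libraries and without HFD replicate 1, and 0 to 166 with each library left out. Same-numbered libraries of the diets did not deviate together (r of -0.44 to -0.078), while differently numbered ones reached 0.36. The numbers thus gave no sign of pairing, which so few libraries cannot exclude. The block or a sign-flip test of same-numbered libraries changed the call of 0 of the 8 genes and 0 of the 7 ratios. The smallest p that the sign-flip test allows is 0.13 for 4 differences. Per kb of the longest transcript, Adam17 had 10.1 CPM, Frmd8 7.21, Rhbdf2 4.43 and Adam15 4.19, and the other 4 genes moved by less than their SD.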
